A study of Homo sapiens with 16 samples.

Results

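The MED1 peaks of MED14-AID HCT116 cells given auxin and Nutlin-3a were set against those of the same cells given water and Nutlin-3a. The auxin list held 66 peaks and the water list 522, so the comparison rests on 588 of the 3464 peaks in the 6 lists of the series. Peaks were paired by an overlap of at least 1 bp. A water peak that overlapped an auxin peak was called kept, one that did not was called lost, and an auxin peak that overlapped no water peak was called auxin-only.

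HCT116 is a human colorectal carcinoma line. The edited cells have the genotype OsTir1+/-;Med14-AID+/+, in which MED14 carries an auxin-inducible degron and OsTir1 is the plant protein that marks degron-tagged proteins for destruction when auxin is present. Both groups carry the degron and OsTir1, and both received Nutlin-3a, which frees p53 from its inhibitor MDM2. One group had 500 µM auxin (IAA) for 3 h and then Nutlin-3a for 1 h, and the other had water for 3 h and then Nutlin-3a for 1 h. The sources used here do not say whether the edited line is a single clone, and the level of MED14 itself was not analysed here. Each condition had 1 MED1 library, made with an antibody against MED1, and 1 input. Of the other lists, those of the same edited cells given auxin alone (53 peaks) or water alone (463 peaks), and those of unedited WT cells given Nutlin-3a (1254 peaks) or DMSO (1106 peaks), serve below as outside readings of the same positions. The whole series has 16 samples.

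Mediator is a large complex that carries signals from transcription factors bound at enhancers and promoters to RNA polymerase II. MED14 is its backbone subunit and holds the head, middle and tail modules together, while MED1 belongs to the middle module and is a contact for nuclear receptors and other factors. Long stretches of dense MED1 signal are commonly used to mark clustered enhancers. p53 binds DNA and recruits Mediator at its target genes.

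Peak lists without replicates allow no test between conditions. The 95% intervals beside shares are Wilson intervals and reflect only how many peaks were counted. The strength of a peak is its fold enrichment over background as deposited by the authors. The lists hold no read counts, so depth is unknown, and weaker binding that was not called is not seen. Peaks are named by hg19 position because no hg19 gene annotation was at hand, and the files do not pair peaks with genes.

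MED1 was still listed under auxin at 47 of 522 water peaks (9.0%, 6.84 to 11.8%), and 475 water peaks were lost. With 66 peaks in the auxin list, most of the 522 could be kept only if single auxin peaks overlapped several water peaks. Of the 66, 49 overlapped a water peak. When the 66 water peaks with the highest −log10 q were taken, so that both lists had the same length, 46.97% were kept. The 47 kept peaks lay on 20 chromosomes. Chromosomes 8 and 12 held the most water peaks, 55 each, and kept 7 and 5 of them, and chromosome 18 kept 0 of 17. With 9.0% of the whole list kept, these counts are too small to show a difference between chromosomes, and none was tested. The 11 water peaks with the highest fold enrichment were all kept. Kept peaks had a median fold enrichment of 7.90 in the water list (quartiles 5.25 and 10.8), and lost peaks one of 4.10 (3.51 and 5.17). The fifth of the list with the highest fold enrichment held 33 kept peaks among 105, and the fifth with the lowest held 1 among 105. Read in the WT Nutlin-3a list, which the pairing did not use, kept peaks had a median fold enrichment of 8.97, and the 406 lost peaks listed there one of 4.62.

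The shares of compact and broad water peaks that were kept differed with strength. Over all strengths, 22 of 353 compact peaks, up to 1 kb wide, were kept (6.23%) and 25 of 169 broad ones, wider than 1 kb (14.8%). At a fold enrichment of at least 8, 10 of 11 compact water peaks were kept (90.9%, 62.3 to 98.4%). Broad water peaks that met the same limit were kept in 13 of 26 cases (50.0%, 32.1 to 67.9%). The 2 intervals overlap, no test was made, and both shares lie above the 9.0% of the whole list. The limit has no upper end, and the groups were not matched in fold above it. Past the limit, the median water fold was 12.4 for kept compact, 10.7 for kept broad and 8.80 for lost broad peaks. The 1 lost compact peak had 8.83. With the limit raised to 10, 100% of 6 compact and 75% of 12 broad peaks were kept. Width was thus not separated from strength here. At a fold enrichment of 6 to 8, compact peaks were kept in 3 of 20 cases (15.0%) and broad ones in 7 of 45 (15.6%). At 4 to 6 the counts were 5 of 122 (4.10%) and 4 of 69 (5.80%), and below 4 they were 4 of 200 (2.00%) and 1 of 29 (3.45%). The limits of 1 kb and 8 were chosen after the values were seen. Dividing the same 37 strong peaks by their width in the WT Nutlin-3a list gave the same counts, 10 of 11 and 13 of 26. With both the width and the fold of at least 8 taken from the WT Nutlin-3a list, 12 of 13 compact peaks (92.3%, 66.7 to 98.6%) and 15 of 51 broad ones (29.4%, 18.7 to 43.0%) were kept. These are counts of water peaks, and the WT Nutlin-3a list itself held 50 peaks of that strength. Several water peaks under 1 broad WT peak were each counted, weak ones included, so the 29.4% is not a share of separate sites. With the dividing width at 1500 bp the shares were 72.2% and 52.6%.

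**Figure D1:**
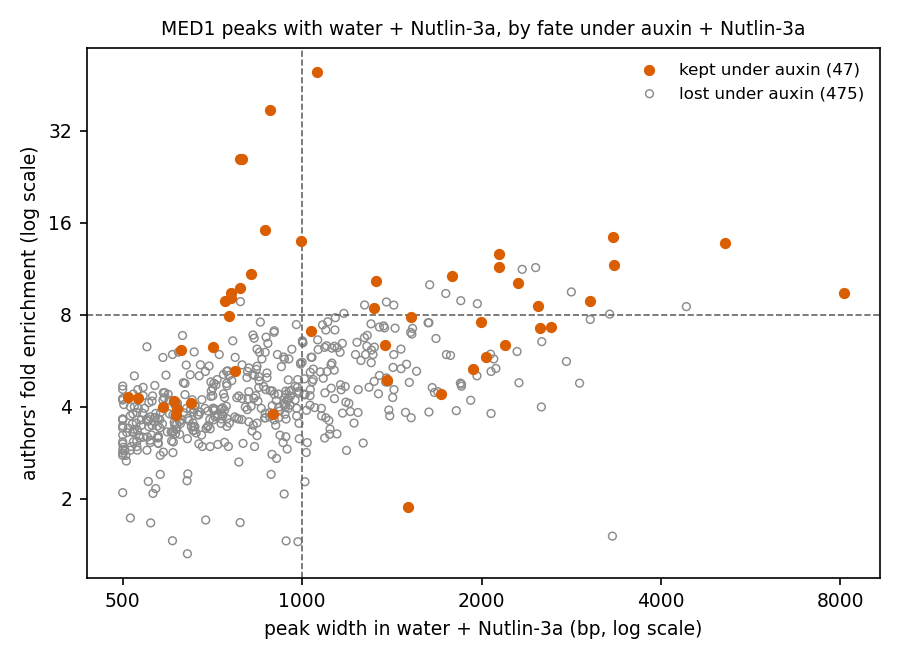
Width in bp (log scale) against the authors' fold enrichment (log scale) for the 522 MED1 peaks with water and Nutlin-3a, 1 point per peak. The 47 kept peaks are filled and the 475 lost peaks are open, with dashed lines at 1 kb and a fold of 8. In the upper left corner 10 of 11 peaks are filled, and in the upper right 13 of 26.

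**Figure D2:**
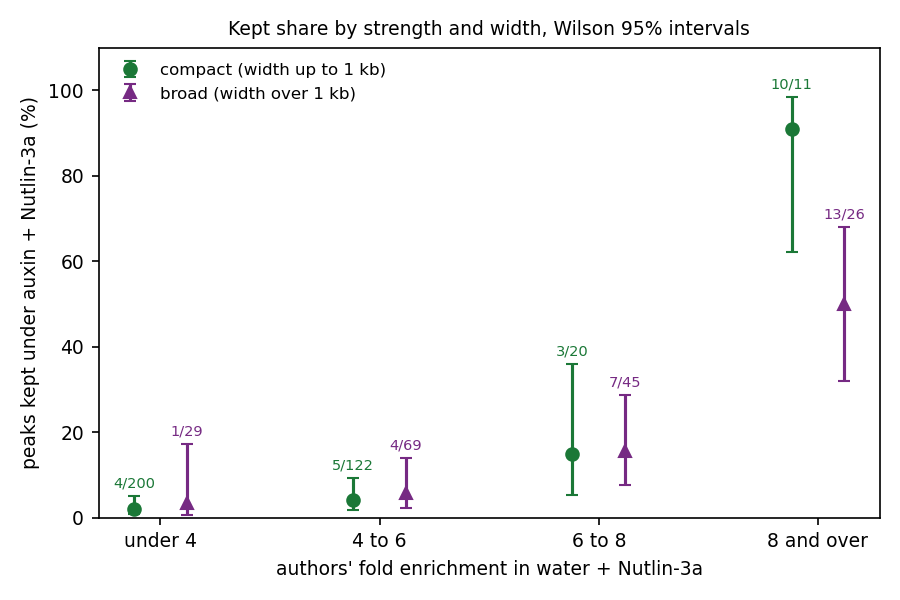
Percent of water peaks kept under auxin with Nutlin-3a, by the authors' fold enrichment in the water list, for compact peaks (circles) and broad peaks (triangles). Bars are Wilson 95% intervals and labels give kept over all peaks; the shares lie close together at folds of 6 to 8 (15.0% and 15.6%) and apart at 8 and over (90.9% and 50.0%).

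The strongest lost peaks were nearly all broad. Of the 14 lost peaks with a fold enrichment of at least 8, 13 were between 1175 and 4413 bp wide. Chromosome 18, 3616671 to 3619135, held the highest, at a fold of 11.4 and 2465 bp wide. A neighbour at 3620888 to 3625300 was the widest of the 14, with a fold of 8.50. Both belong to a cluster of 6 water peaks from 3594059 to 3627439, joined across gaps within the distance customary for clustered enhancers, and none of the 6 was kept. On chromosome 20, 30194960 to 30197299 had a fold of 11.3, and on chromosome 12, 66216357 to 66219186 had 9.50. All 13 broad lost peaks were also listed in both WT lists and with water alone. Their folds in the WT Nutlin-3a list, from 5.53 to 10.0, overlapped those of the 13 broad strong peaks that were kept, from 6.96 to 47.5. The one compact peak among the 14, on chromosome 14, 94848999 to 94849786, had a fold of 8.83 over 788 bp. It was listed with auxin alone at a fold of 7.96, in the WT Nutlin-3a list at 9.03, and not in the WT DMSO list. Among strong water peaks that the WT DMSO list also held, 10 of 10 compact and 13 of 26 broad ones were kept.

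Peaks within clusters were kept in 18 of 299 cases (6.02%), and peaks that stood alone in 29 of 223 (13.0%). The water peaks formed 329 regions, of which 106 held more than 1 peak. Some peaks were kept in 17 of the 106, all in 0 and none in 89. With 9.0% of all water peaks kept, a region kept whole would be rare in any case. In 15 of the 17, the peak with the highest fold enrichment was among those kept. The region with the most peaks, on chromosome 6 from 159118377 to 159160089, had 10 water peaks, and the single one kept was its highest.

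The signal at kept positions separated by width as well. Over all 47 pairs, the median fold enrichment was 5.68 with auxin and 7.90 with water, and the median log2 ratio, auxin over water, was -0.18 (quartiles -0.91 and 0.30). Fold enrichment was at least 1.5-fold lower with auxin in 17 of 47 pairs (36.2%) and at least 1.5-fold higher in 7 (14.9%). The median ratio turned to 0.069 when a reciprocal overlap of 50% was asked, which left out most broad pairs. A ratio between 2 lists holds any difference in the background and depth of the libraries, which cannot be told apart from binding.

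Among compact strong peaks with Nutlin-3a the values stayed level in the median. The 10 pairs ran from 5.68 to 40.4 with auxin and from 8.89 to 37.3 with water, and the median log2 ratio was 0.07 (range -0.94 to 0.38). Fold enrichment was higher with auxin in 6 and lower in 4, and 1 passed 1.5-fold. On chromosome 19, 6199186 to 6200104, the fold was 40.4 with auxin and 37.3 with water, and 36.4 in WT cells with Nutlin-3a. On chromosome 12, 13080169 to 13080968, it was 33.7 with auxin and 25.8 with water. On chromosome 4, 3747901 to 3748809, it was 32.6 with auxin and 25.9 with water. Next by water fold was chromosome 17, 27278249 to 27279133, at 14.002 with auxin and 15.2 with water. The closest of the 10 pairs lay on chromosome 16, 4475462 to 4476265, at 9.03 with auxin and 9.04 with water. The pair past 1.5-fold lay near the start of chromosome 7, 149045 to 149785, at 5.68 with auxin and 10.9 with water.

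Among broad strong peaks all 13 kept pairs were lower. These pairs were chosen by a high water fold, which is also the denominator of the ratio, and the ratio ran against that fold too (Spearman rho of -0.45 over the 47 pairs). The 13 pairs ran from 3.47 to 36.5 with auxin and from 8.44 to 49.9 with water, with a median log2 ratio of -1.002 (range -1.52 to -0.45), and 11 of 13 passed 1.5-fold. With strength and width both taken from the WT Nutlin-3a list, 13 of 15 broad strong pairs were lower (median log2 ratio -0.88), and 5 of 12 compact ones (median 0.07). Apart from the chromosome 7 pair, the lowest ratio of a compact strong pair was -0.11, above the -0.45 that was highest among the broad ones. The pair at -0.45 was the strongest of the water list, on chromosome 2, 3522302 to 3523336, at 36.5 with auxin and 49.9 with water. It was counted as broad at a water width of 1060 bp, the narrowest of the 13. On chromosome 6, 159151237 to 159152305, the fold was 6.84 with auxin and 14.3 with water. On chromosome 11, 65189580 to 65190334, it was 6.29 with auxin and 12.6 with water. On chromosome 4, 30758712 to 30759567, it was 5.05 with auxin and 11.7 with water. The lowest ratio was on chromosome 8, 126692171 to 126692767, at 3.54 with auxin and 10.2 with water. Across the 47 pairs, the ratio ran against width, with a Spearman rho of -0.72 for the width in the water list and -0.67 for the width in the WT Nutlin-3a list. These are descriptions over positions that share 2 libraries.

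Width also differed between the classes. All 25 broad pairs were narrower with auxin, with a median width of 684 bp with auxin and 2038 bp with water. These pairs were chosen by their water width, so that difference is not independent of the choice. Among the 25 pairs that were broad in the WT Nutlin-3a list, 23 were narrower with auxin, 21 of them by at least 1.5-fold, with medians of 706 bp with auxin and 2038 bp with water. Among the 22 that were compact there, 8 were narrower, and the medians were 701.5 bp with auxin and 759.5 bp with water. All 22 compact pairs stayed within 1.5-fold of their water width save 1, and the medians were 742 bp with auxin and 757 bp with water. Auxin peaks covered 93.8% of the bases of compact kept peaks and 36.3% of the bases of broad ones. The largest loss of width was on chromosome 8, where a water peak of 8104 bp from 128230878 was met by an auxin peak of 539 bp, 128234915 to 128235453. On chromosome 12, an auxin peak of 2356 bp, 52540651 to 52543006, lay within a water peak of 5131 bp. A pair of broad water peaks, on chromosomes 5 and 22, each overlapped 2 separate auxin peaks. No list held a peak narrower than 500 bp, so compact peaks had little room to narrow and some could not narrow by 1.5-fold. The widths of compact pairs and their 93.8% coverage are not independent of that floor.

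**Figure D3:**
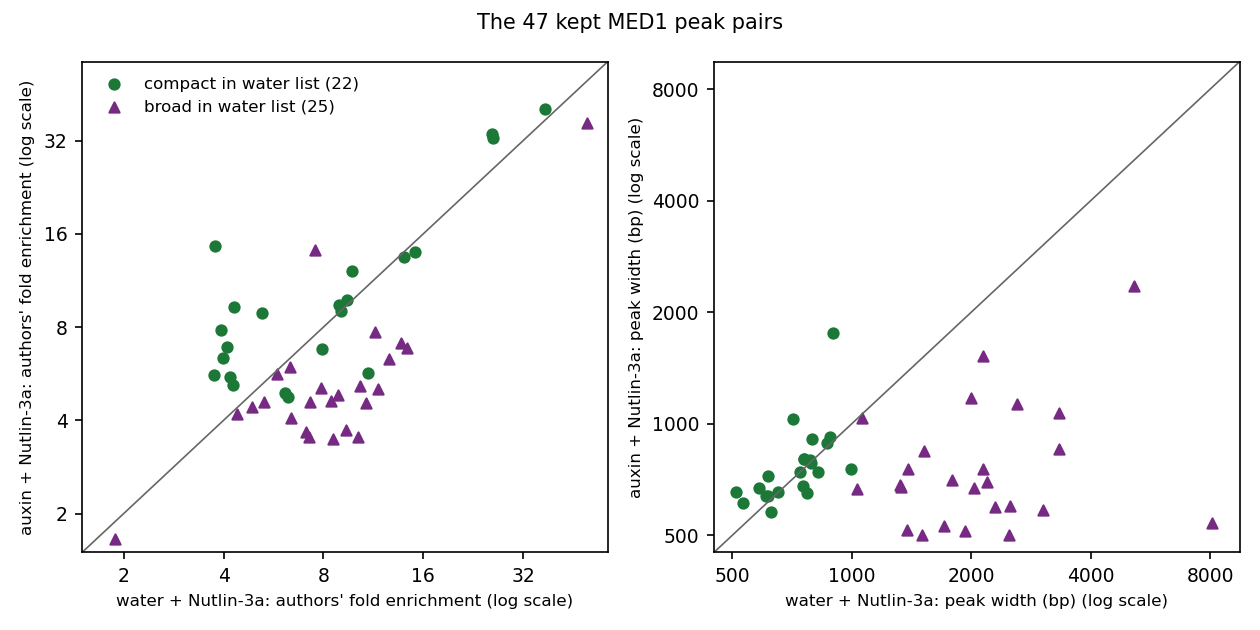
The 47 kept pairs, with auxin and Nutlin-3a on the vertical and water and Nutlin-3a on the horizontal axis, for the authors' fold enrichment (left) and the peak width in bp (right), all on log scales. The line marks equal values; the 22 compact pairs (circles) lie on both sides of it, whereas 24 of 25 broad pairs (triangles) lie below it on the left and all 25 on the right.

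Summits of the kept pairs lay close together. The median distance between the auxin and the water summit was 40 bp, with 36 of 47 pairs within 100 bp. Pairs had to overlap, so their widths bounded this distance, and broad pairs had more room than compact ones. Compact pairs were within 100 bp in 20 of 22 cases, with a median of 25 bp and a maximum of 121 bp. Broad pairs were within 100 bp in 16 of 25, with a median of 77 bp and a maximum of 712 bp on chromosome 22, 37723936 to 37724534. The water peak of that pair also overlapped another auxin peak, 37724779 to 37725343, with a fold of 5.20 against 3.54. The pair was set by the larger overlap, so the 712 bp depends on the pairing rule. With pairs set by nearest summits, the median over all 47 was again 40 bp. In the 8104 bp peak on chromosome 8, the summits lay 260 bp apart.

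Fold enrichment was higher with auxin in 16 of 47 pairs, 15 of them compact. The highest ratio was on chromosome 14, 100743361 to 100745123, with a fold of 14.6 and a width of 1763 bp with auxin, against a fold of 3.78 and a width of 895 bp with water. In the WT Nutlin-3a list it had a fold of 13.8, and it was in no list without Nutlin-3a. Chromosome 12, 120554367 to 120555019, followed with a fold of 9.30 with auxin and 4.29 with water. Chromosome 1, 211432191 to 211432915, had 7.84 with auxin and 3.92 with water. Chromosome 2, 216973629 to 216974278, had 8.86 with auxin and 5.21 with water. The only broad pair that was higher lay on chromosome 8, 6505980 to 6507156, at 14.2 with auxin and 7.56 with water. A pair of broad peaks less than 100 kb away on the same chromosome were lower, at 4.62 with auxin and 8.44 with water from 6459824, and at 4.59 with auxin and 7.30 with water from 6455890. Weak water peaks could be kept only if the auxin peak was itself strong enough to be called, since 6 of 66 auxin peaks had a fold under 3.5. Of the 10 kept pairs with a water fold under 4.5, 8 were higher with auxin.

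Auxin-only peaks were, with 1 exception, listed in WT cells as well. They numbered 17 of 66 (25.8%, 16.7 to 37.4%), a share of 54.5% when a reciprocal overlap of 50% was asked and of 50% with lists of equal length. Of the 17, 16 were listed in the WT Nutlin-3a list, 15 in both WT lists and 8 with water alone. In the 16 shared with the WT Nutlin-3a list, the auxin fold was higher in 8 and lower in 8. For comparison, 453 of 522 water peaks (86.8%) were in the WT Nutlin-3a list. The 49 auxin peaks that did overlap a water peak were listed more often than the 17. All 49 were in the WT Nutlin-3a list, 47 (95.9%) were listed with water alone and 33 (67.3%) with auxin alone. Of the 17, 8 (47.1%) were listed with water alone and 1 (5.88%) with auxin alone. Auxin-only peaks were short, with a median width of 537 bp (501 to 1011 bp), and their median fold was 5.14. The nearest to any water peak of the Nutlin-3a list was 108 kb away from it.

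The highest auxin-only peak was on chromosome 15, 68132013 to 68133023, with a fold of 8.91 with auxin and Nutlin-3a and 12.6 in WT cells with Nutlin-3a. It was in no other list. Chromosome 21, 35747414 to 35748005, had a fold of 6.56 with auxin and Nutlin-3a, 6.06 with water alone, 4.52 in WT cells with Nutlin-3a and 5.67 in WT cells with DMSO. Chromosome 1, 24306551 to 24307229, had 6.25 with auxin and Nutlin-3a, 5.42 with water alone, and 5.37 and 6.09 in WT cells with Nutlin-3a and with DMSO. Chromosome 10, 134145203 to 134145715, had 5.89 with auxin and Nutlin-3a, and 5.41 and 8.10 in those WT lists, and was listed with neither water nor auxin alone. The 12 that follow, all in both WT lists, had folds from 2.97 to 5.52. The last, on chromosome 3, 75697819 to 75698439, had a fold of 2.49 and was in no other list.

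**Figure D4:**
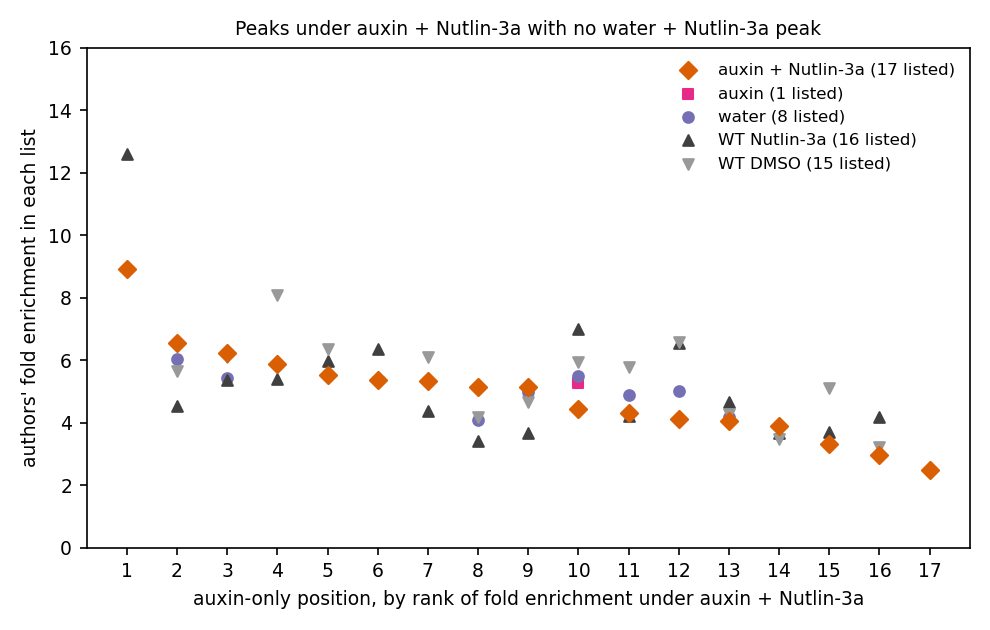
The authors' fold enrichment of the 17 auxin-only positions in each list that holds them, ordered by their fold with auxin and Nutlin-3a (diamonds). WT Nutlin-3a gives a value at 16 of the 17, WT DMSO at 15, water alone at 8 and auxin alone at 1.

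Some auxin-only peaks lay far out on their chromosomes. Of the 17, 7 (41.2%, 21.6 to 64.0%) were within 3 Mb of the outermost peak that any list held on that chromosome, and 4 of them were within 1 kb of it. Among water peaks 34 of 522 (6.51%) were as far out, and among WT Nutlin-3a peaks 127 of 1254 (10.1%). The distance was chosen after the positions were seen, and auxin-only peaks are among those that set the outermost positions. The 7 were on chromosomes 9, 10, 13, 16 and 21.

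Kept peaks were listed more widely than lost ones. All 47 kept peaks were in the WT Nutlin-3a list, 44 in the WT DMSO list and 45 with water alone. Lost peaks were in those lists in 406, 366 and 314 of 475 cases, and all water peaks in 453, 410 and 359 of 522. Kept peaks were also stronger, with a median fold of 7.90 in the water list against 4.10 for lost ones, and listing was not compared at equal strength. Of the water peaks with Nutlin-3a that were absent with water alone, 2 of 163 were kept (1.23%, 0.337 to 4.36%), against 45 of 359 (12.53%, 9.50 to 16.4%) of those listed there. The absent ones were also weaker, with a median fold of 3.66 in the water and Nutlin-3a list against 4.67 for the rest. The 2 kept ones were the chromosome 14 peak from 100743628 and one on chromosome 2 from 113012426, at a fold of 5.21 with auxin and 4.27 with water.

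Both auxin lists named the same positions in part. Of the 47 kept peaks 32 were also listed with auxin alone. A further 15 lost peaks were listed with auxin alone, and 11 of these 15 were absent from the WT DMSO list, although all 11 were in the WT Nutlin-3a list. With water and Nutlin-3a these 11 had folds from 4.498 to 8.83. They include the chromosome 14 peak from 94848999 and peaks on chromosome 11 from 2017889 and 116706552. Whether the signal at these 11 positions came from HCT116 chromatin in every library was not tested, and the loss of the compact strong peak named above rests on it. Of the 522 water peaks, 112 were absent from the WT DMSO list, and 3 of these were kept. Among the 3, the pair on chromosome 4 from 155507495 was also listed with auxin alone and in the WT Nutlin-3a list. The source of its signal was not tested either.

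The lists without Nutlin-3a had a kept share of 44 of 463 (9.50%). Of its 44 pairs, 14 (31.8%) were at least 1.5-fold lower with auxin and 3 (6.82%) at least 1.5-fold higher. There, 12 of 15 compact strong water peaks (80.0%, 54.8 to 93.0%) and 6 of 21 broad ones (28.6%, 13.8 to 50.0%) were kept. The median log2 ratio, auxin over water, was -0.57 at the 12 compact and -1.05 at the 6 broad pairs, against 0.07 and -1.002 with Nutlin-3a. Without Nutlin-3a, 11 of the 12 compact and 5 of the 6 broad pairs were lower with auxin. Over pairs of all strengths there, the median was -0.17 for compact and -0.31 for broad ones. Whether the compact peaks differ between the pairs was not tested, with 1 library in each condition.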

How the data were processed

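MED1 ChIP-seq peak lists were taken as the authors deposited them. Per the submitters' processing notes, the aligner was Bowtie 0.12.9, the build hg19 and the peak caller MACS2 2.1.2; settings are not given in the sources used here. Per the labels, each MED14-AID list belongs to 1 library, and each WT list to 2, merged per the peak names. The deposited fold enrichment is a ratio over the caller's background. The deposited −log10 values of a peak's q were used for limits and, as an alternative, in place of fold enrichment; those of p were not used here. The deposited score is that −log10 q multiplied by 10 without its decimals. The deposited summit offset gave summit positions.

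Peaks were paired by at least 1 bp. A water peak with several partners was paired with the one of larger overlap. Clusters join water peaks with gaps of at most 12.5 kb. Positions are 1-based. Named positions were chosen by a rule: the highest kept, lost and auxin-only peaks and the largest changes in fold, width and summit. The members of clusters, the chromosome 11 peaks and some kept pairs, on chromosomes 7 and 16 among others, were named after their values were seen. The members, lists and limits were chosen with earlier results of these data known. Counts equalled those of bedtools 2.31.1, and in a check on simulated data made from the 522 water peaks 60 of 60 copied peaks were paired with their simulated ratio. Lists were read in Python 3.11.15 with pandas 2.3.3 and numpy 2.4.6; intervals came from scipy 1.17.1 and plots from matplotlib 3.10.9. Alternatives were other overlap rules, −log10 q limits, list lengths, stitched regions, pairings and width and fold limits, and classes set in the WT lists. Gene lists, marker lists and motifs, which need an hg19 annotation or genome, were not analysed here.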

Additional observations from a re-analysis of the deposited data

Results flagged for a closer look

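At 32 positions a MED1 peak was kept in both pairs of lists, with and without Nutlin-3a. The fold enrichment moved in the same direction in 24 and in opposite directions in 8, and that difference was not tested, with 1 library in each condition. None of the 8 passed 1.5-fold in both pairs. The log2 ratio, auxin over water, was 0.38 with Nutlin-3a and -1.18 without it on chromosome 12 from 13080169. The peak on chromosome 19 from 6199186 had 0.12 with Nutlin-3a and -0.52 without it. For chromosome 1 from 231473281 these were 0.05 with and -0.75 without. The chromosome 10 position from 124713553 gave 0.58 with and -0.34 without. Chromosome 2 from 216973629 gave 0.77 with and -0.25 without, and the peak of chromosome 4 starting at 3747901 gave 0.33 with and -0.07 without. These 6 were compact in the water list with Nutlin-3a. The 2 that went the other way were broad there, at -0.45 with and 0.18 without Nutlin-3a for the strongest water peak, chromosome 2 from 3522302, and -0.08 with and 0.63 without for chromosome 4 from 155507495. The position from 155507495 was absent from the WT DMSO list, and the source of its signal was not tested.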

How the results depend on the processing

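No paired analysis was possible because the MED14-AID conditions have 1 library each and no replicate numbers that pair them. Leaving out a library was not possible either. With a reciprocal overlap of 50%, 5.75% of water peaks were kept and 54.5% of auxin peaks were auxin-only, the median log2 ratio of kept pairs turned to 0.069, and the median width difference was 2.5 bp instead of -367 bp. That setting drops pairs that share less than 50% of either peak, and those dropped were broad pairs with a narrower auxin peak. It left 15.4% of broad strong peaks kept, with a median log2 ratio of -0.72. With lists of equal length 46.97% were kept and 50% of auxin peaks were auxin-only. Kept were 13.98% of stitched regions, and 15.9% of water peaks once a −log10 q minimum of 10 was set in the water list alone. With −log10 q in place of fold, the median log2 ratio was -0.80, and the median of kept peaks was 4.02 times that of lost ones instead of 1.93 times. With that minimum set in each of the lists the median summit distance was 21 bp. The settings that follow were chosen after the data were seen. Divided at 750 bp, 100% of compact strong peaks, a single peak, were kept. At a fold of at least 6, 41.9% of compact and 28.2% of broad peaks were kept, and at a fold of at least 10, 100% and 75%. Among strong peaks listed in the WT DMSO list, 100% of compact ones were kept, and with width and fold from the WT Nutlin-3a list 29.4% of broad ones. The 29.4% includes weak water peaks that lay under a broad WT peak. The median ratio of compact strong pairs was -0.0016 when divided at 1500 bp, and also at a fold of at least 6. The cause of these shifts was not tested. The motif comparison was not run. Depth is unknown, so the number of peaks called in each list cannot be weighed against it.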
